A study of Mus musculus with 8 samples.

Results

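Kupffer cells, the macrophages that live in the sinusoids of the liver, were followed here through 10 genes: *Clec4f*, *Vsig4*, *Timd4*, *Cd5l*, *Marco*, *Adgre1*, *Csf1r*, *C1qa*, *C1qb* and *C1qc*. They were taken by symbol from the table of gene counts, in which they are 10 of 17810 rows, by a rule that uses the symbol alone. The table holds whole-liver RNA-Seq of 8 mice, 4 WT and 4 *HKO*. In *HKO* mice the loxP-flanked miR-33 gene was deleted by Cre recombinase under the albumin promoter, which is active in hepatocytes and not in the macrophages that express these genes. Whether the WT controls carried the loxP alleles is not given in the sources used here. All mice were male littermates of 5 months that had been kept on CD-HFD, a diet rich in fat and lacking choline that makes the liver steatotic, for 3 months from the age of 8 weeks. Both groups shared this diet, and livers were flushed with PBS before freezing. The comparison asks whether loss of miR-33 from hepatocytes was accompanied by a change in the genes of the resident macrophages beside them.

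Kupffer cells settle in the liver before birth and renew themselves there, and they need signalling through the CSF1 receptor to survive. Neighbouring endothelial, stellate and parenchymal cells give them their identity, through Notch and TGF-beta family signals and the nuclear receptor LXR-alpha. They clear particles, microbes and dying cells from portal blood. In steatohepatitis they can be lost and replaced by cells recruited from blood monocytes, and for that reason genes such as *Clec4f* and *Timd4* are commonly used to tell resident from recruited macrophages.

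The deleted gene encodes miR-33, whose mature 5p strand is shown because its seed (bases 2 to 8, in capitals) is what pairs with target mRNAs. It lies at chr15:82198127-82198147 on the plus strand of GRCm38.p6, and RefSeq is the source of this and the promoter sequences.
mmu-miR-33-5p: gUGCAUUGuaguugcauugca
In each gene, the 3'UTR of greatest length in GENCODE vM21 was searched for CAATGCA, which pairs with bases 2 to 8, and AATGCAA, which pairs with bases 2 to 7 and ends in A. Of the 10 genes, 2 held such a word, beside 1872 of 11529 tested genes (16.2%). The matches in *Timd4*, at chr11:46844203-46844232, and in *Cd5l*, at chr3:87370785-87370814, both on the plus strand, are shown with the word in capitals.
Timd4 site: ggacccaaagaAATGCAAccagagctatta
Cd5l site: gtttgatgtctAATGCAAcagtattctgag
A match of letters is not a measured site, and neither gene passed the test between genotypes.

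The 250 bases before the start site were searched after 9 of the 10 genes, all but *Marco*, showed the same 3 lowest livers. A tie between that pattern and the words below was not tested, and a match of letters is not measured binding. RefSeq windows were used for 7 of the 10 genes (*Clec4f*, *Vsig4*, *Timd4*, *Cd5l*, *Marco*, *C1qb* and *C1qc*). None was matched for *C1qa* and *Adgre1* under these symbols. *Csf1r* was left out by its chromosome, a filter not applied to the windows of all genes. GAGGAA, the core that the macrophage lineage factor PU.1 binds, or its reverse TTCCTC stood in 5 of 7 windows (*Vsig4*, *Cd5l*, *Marco*, *C1qb* and *C1qc*) and in 23.3% of all 32851 windows. The MAF half-site TGCTGA (reverse TCAGCA) stood in 4 of 7 and in 16.1% of all windows, and the core TGGGAA (reverse TTCCCA) of RBPJ, the DNA-binding partner of Notch, in 2 of 7 and in 21.6%. Each word was counted by itself on both strands, also where words overlapped. The windows of *Vsig4*, *Cd5l*, *C1qb* and *Marco*, which hold the PU.1 core (in capitals), and that of *Clec4f*, which does not, are shown 5' to 3' on the strand of the gene. They lie at chrX:96293439-96293688 (minus), chr3:87357631-87357880 (plus), chr4:136886201-136886450 (minus), chr1:120505025-120505274 (minus) and chr6:83656117-83656366 (minus) of GRCm38.p6, in that order.
Vsig4: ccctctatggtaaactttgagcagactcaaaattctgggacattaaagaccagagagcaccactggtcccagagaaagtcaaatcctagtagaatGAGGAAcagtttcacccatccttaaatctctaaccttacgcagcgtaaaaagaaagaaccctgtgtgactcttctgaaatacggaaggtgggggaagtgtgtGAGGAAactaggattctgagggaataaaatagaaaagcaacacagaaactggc
Cd5l: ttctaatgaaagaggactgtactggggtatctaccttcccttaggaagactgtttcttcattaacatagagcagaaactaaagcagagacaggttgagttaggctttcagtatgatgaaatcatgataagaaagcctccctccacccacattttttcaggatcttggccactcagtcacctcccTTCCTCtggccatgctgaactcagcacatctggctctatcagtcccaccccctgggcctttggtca
C1qb: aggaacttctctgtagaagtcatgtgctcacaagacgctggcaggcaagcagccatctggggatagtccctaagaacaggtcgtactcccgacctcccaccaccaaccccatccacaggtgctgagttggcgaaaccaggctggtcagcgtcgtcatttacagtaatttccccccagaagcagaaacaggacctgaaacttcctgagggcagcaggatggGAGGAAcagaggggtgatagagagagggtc
Marco: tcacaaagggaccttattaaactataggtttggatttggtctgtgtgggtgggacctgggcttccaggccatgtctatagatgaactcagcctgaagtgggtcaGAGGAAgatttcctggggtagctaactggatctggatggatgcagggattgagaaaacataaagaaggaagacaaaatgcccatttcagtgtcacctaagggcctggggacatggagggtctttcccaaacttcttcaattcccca
Clec4f: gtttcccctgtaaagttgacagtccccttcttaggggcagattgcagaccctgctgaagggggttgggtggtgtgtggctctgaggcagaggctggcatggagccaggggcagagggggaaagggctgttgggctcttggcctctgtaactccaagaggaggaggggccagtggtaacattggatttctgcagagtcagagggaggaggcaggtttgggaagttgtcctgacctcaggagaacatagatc
The core nearest the start site began 53 bases before it in *Vsig4*, 66 in *Cd5l*, 30 in *C1qb* and 146 in *Marco*.

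Values are CPM, the share of a library's counts on a scale common to all livers, after TMM scaling, a correction for differences in RNA composition between libraries. Totals ran from 12174352 to 18735791 counts per liver, and the 10 genes had between 8 and 1562 counts in a liver. Hepatocyte markers summed to between 89830 and 142400 CPM, so the tissue is liver by its own transcripts. The sum of the 10 genes was between 83.7 and 280.1 CPM. In whole liver, fewer Kupffer cells and less RNA per Kupffer cell cannot be told apart.

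The genes that most define a resident Kupffer cell are cell surface receptors. *Clec4f*, a C-type lectin that binds galactose-bearing glycans and that in mice is restricted to Kupffer cells, stood at 20.3, 56.6, 55.2 and 28.3 CPM in WT livers 1 to 4. In *HKO* livers 1 to 4 it stood at 57.5, 19, 52.7 and 54.8 CPM. *HKO* 2, WT 1 and WT 4 were low, and the other 5 livers lay within 52.7 to 57.5 CPM. *Vsig4*, the complement receptor CRIg that captures C3b-coated particles, gave 14, 31.7, 34.6 and 16.9 CPM in WT and 28.7, 9.87, 28.2 and 32.3 CPM in *HKO* mice. The same 3 livers were low. *Timd4*, a receptor for phosphatidylserine on dying cells, was scarce, with 2.31, 10.04, 5.17 and 4.399 CPM in WT and 6.20, 1.62, 6.08 and 7.91 CPM in *HKO* mice. Its 3 lowest livers were again those.

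*Cd5l* and *Marco* take part in the handling of debris and microbes. *Cd5l*, also called AIM, is a secreted protein of the scavenger receptor cysteine-rich family, and gave 28.3, 75.0, 77.6 and 40.7 CPM in WT livers. Its *HKO* values were 64.9, 20.1, 61.5 and 70.6 CPM. Again WT 1, WT 4 and *HKO* 2 were the 3 lowest. *Marco*, a class A scavenger receptor for bacteria and particles, gave 0.991, 12.5, 4.27 and 6.50 CPM in WT and 4.25, 0.617, 4.73 and 1.62 CPM in *HKO* mice. It departed from the others: WT 4 was above WT 3, *HKO* 4 was low, and the highest liver was 20.2 times the lowest, where the other 9 genes spanned 2.39 to 6.20 times. *Marco* also had the fewest counts in a liver, 8 in *HKO* 2 and 12 in WT 1.

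*Adgre1* and *Csf1r* are shared by most macrophages. *Adgre1*, which encodes the F4/80 antigen, gave 5.45, 9.76, 16.5 and 5.97 CPM in WT and 15.5, 3.47, 9.57 and 14.5 CPM in *HKO* mice. *Csf1r*, the receptor for CSF1 and IL-34, gave 11.3, 26.1, 30.3 and 14.4 CPM in WT and 25.01, 7.79, 19.6 and 25.8 CPM in *HKO* mice. The 2 groups overlapped in both genes, and the 3 low livers were the same ones.

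*C1qa*, *C1qb* and *C1qc* encode the 3 chains that assemble into C1q, the recognition part of the first complement component, which in the body is made mainly by macrophages. They lie next to each other on the minus strand of chromosome 4, within 18719 bases (chr4:136880126-136898844). In WT livers *C1qa* gave 10.9, 19.4, 18.1 and 10.1 CPM, and in *HKO* livers 16.1, 6.63, 18.4 and 17.5 CPM. *C1qb* ran from 7.02 CPM in *HKO* 2 to 23.0 CPM in *HKO* 4, and *C1qc* from 7.56 CPM in *HKO* 2 to 18.03 CPM in *HKO* 4. WT 1, WT 4 and *HKO* 2 were the 3 lowest livers for each chain.

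**Figure D1:**
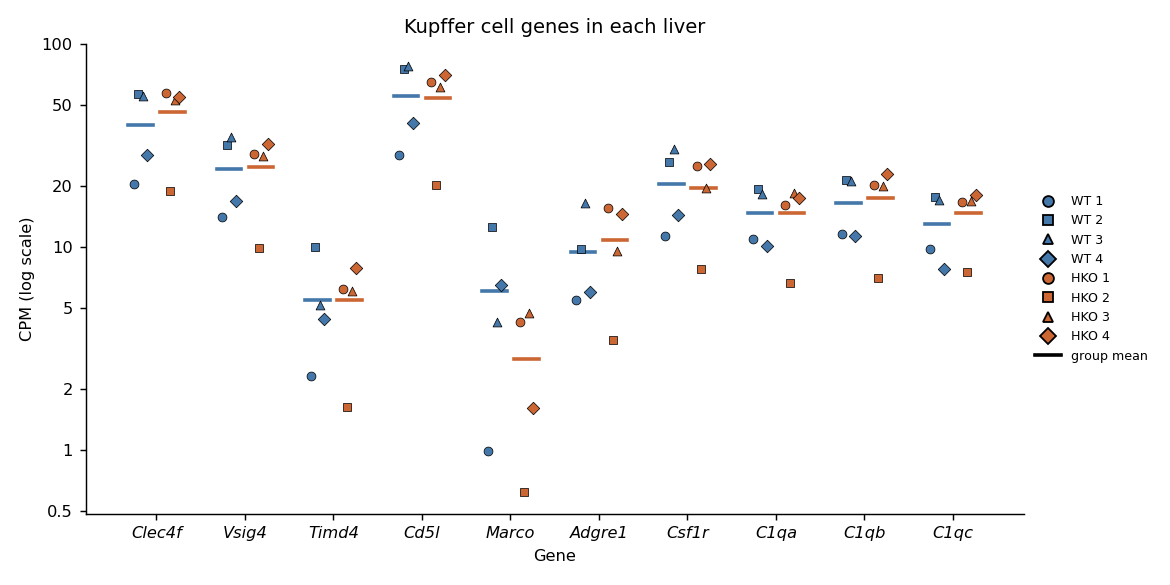
Level of each of the 10 Kupffer cell genes in CPM (log axis) in 4 WT (blue) and 4 *HKO* (orange) livers, with 1 point per liver and a bar at the group mean. The groups overlap in every gene, and *HKO* 2 is the lowest point in all 10.

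Divided by the annotated exonic length of the gene (GENCODE vM21), the levels had an order from *Cd5l*, with a mean of 26.9 CPM per kilobase over the 8 livers, through *Clec4f* (17.4), *Vsig4* (16.5), *C1qb* (15.6) and *C1qa* (14.1) to *C1qc* (7.20), *Csf1r* (3.47), *Adgre1* (3.12), *Timd4* (2.52) and *Marco* (2.30). Within a genotype *Cd5l* was 27.2 ± 12.1 (SD, n = 4) in WT mice on this scale, and 26.7 ± 11.3 (SD, n = 4) in *HKO* mice. Neighbours in this order differed by less than the SDs between livers of the same genotype, other than *C1qa* and *C1qc*, *C1qc* and *Csf1r*, and in part *Cd5l* and *Clec4f*, whose difference was below the SDs of *Cd5l* and above those of *Clec4f* (7.5 in WT and 7.33 in *HKO* mice). With its longest transcript alone (1203 bases in place of 1931) *C1qc* was 11.6 and kept its place, but then differed from *C1qa* by less than the SDs of *C1qa* (4.62 and 5.22).

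No Kupffer cell gene passed the test of *HKO* against WT. All 10 were tested, and 0 had an adjusted p under 0.05 in edgeR's quasi-likelihood test, against 5.03% of the 12395 genes tested. DESeq2 called 0 of 10, beside 8.20% of the genes it tested, and limma-voom 0 of 10, beside 4.86%. At an unadjusted p under 0.05 the edgeR count was also 0 of 10, beside 19.8% of all genes. The ranges of the genotypes overlapped for all 10 genes, while 12.5% of tested genes had no overlap. The median log2 fold change (*HKO* minus WT) of the 10 genes was 0.01, beside 0.01 for all tested genes, with 4 of 10 below 0.

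Each difference other than that of *Marco* was small, and every interval was wide. Mean *Clec4f* was 40.1 ± 18.5 CPM (SD, n = 4) in WT mice, and the *HKO* mean was 46.0 ± 18.1 CPM (SD, n = 4), a fold of 1.15 with a 95% interval of 0.524 to 2.50 (edgeR adjusted p = 0.874). *Cd5l* was 55.4 ± 24.7 and 54.3 ± 23.1 CPM, a fold of 0.979 (0.433 to 2.21), and *Vsig4* 24.3 ± 10.3 and 24.8 ± 10.1 CPM, a fold of 1.02 (0.486 to 2.13). *Csf1r* had a fold of 0.949 (0.445 to 2.02), *Timd4* of 0.992 (0.417 to 2.36) and *Adgre1* of 1.13 (0.473 to 2.72). *C1qa*, *C1qb* and *C1qc* had folds of 1.00, 1.07 and 1.13, with the narrowest intervals of the 10, from 0.569 to 1.76 for *C1qa*. *Marco* had the largest difference, 6.06 ± 4.84 CPM in WT and 2.80 ± 2.0 CPM in *HKO* mice, a log2 fold change of -1.08 ± 0.81 (SE), edgeR adjusted p = 0.533. Without WT 2 it was -0.47. The intervals are for each gene alone, and a missed threshold does not show that the genotypes were alike.

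**Figure D2:**
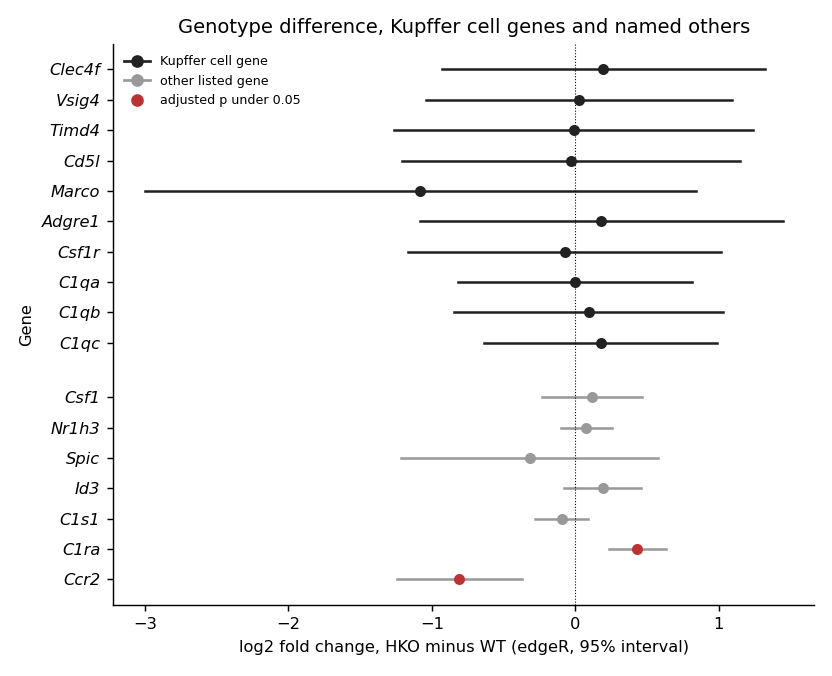
Log2 fold change of *HKO* minus WT livers (horizontal axis) with its 95% interval from edgeR, for the 10 Kupffer cell genes (black) and for 7 other listed genes (grey), with red points for an adjusted p under 0.05. All 10 black intervals cross 0, from -0.64 to 0.99 for *C1qc* and from -3.0 to 0.84 for *Marco*.

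The wide intervals come with a large spread inside each genotype. Among livers of the same genotype, the coefficient of variation was 32.8% to 79.9%, while counting error alone gives 3.75% to 20.5%. The SD of log2 CPM within genotypes was 0.58 to 1.37 for the 10 genes, against a median of 0.20 for all tested genes, and *C1qc*, the least variable of them, exceeded 92.0% of tested genes. The median SE of the log2 fold change was 0.47 for the 10 genes and 0.14 for all tested genes. Without *HKO* 2 the median log2 fold change of the 10 was 0.29, without WT 1 it was -0.14, and none passed the test in any of the 8 fits that left out a liver. The signs of the small differences changed with such settings. Under total count scaling, which moves the median of all genes to -0.08, those of *Vsig4*, *C1qa* and *C1qb* turned negative.

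This spread had a shared form. WT 1, WT 4 and *HKO* 2 were the 3 lowest livers of *Clec4f*, and were taken from it. They were the 3 lowest for 9 of the 10 genes, *Clec4f* itself included and all but *Marco*. Among all tested genes they were the 3 lowest for 345 of 12395 (2.78%). Since the livers were picked from the values of 1 of the 10 genes, these shares are a description and not a test. *HKO* 2 was the lowest for all 10. WT 1 and *HKO* 2, with 12174352 and 12764662 counts, were among the 3 smallest libraries, as was *HKO* 4 (12509199) but not WT 4 (15355247), and the part of depth was not tested. After each genotype mean was removed, Pearson's r of log2 CPM over the 8 livers had a median of 0.94 over the 45 pairs of genes and of 0.95 over the 36 pairs without *Marco*. The C1q chains were close to each other, with r from 0.97 to 0.99. Each gene against the mean of the other 9 gave 0.99 for *Clec4f*, *Vsig4* and *Cd5l*, 0.93 for *Timd4*, 0.92 for *Adgre1* and 0.71 for *Marco*. These r values are descriptions over 8 libraries that share depth and composition, and carry no p.

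**Figure D3:**
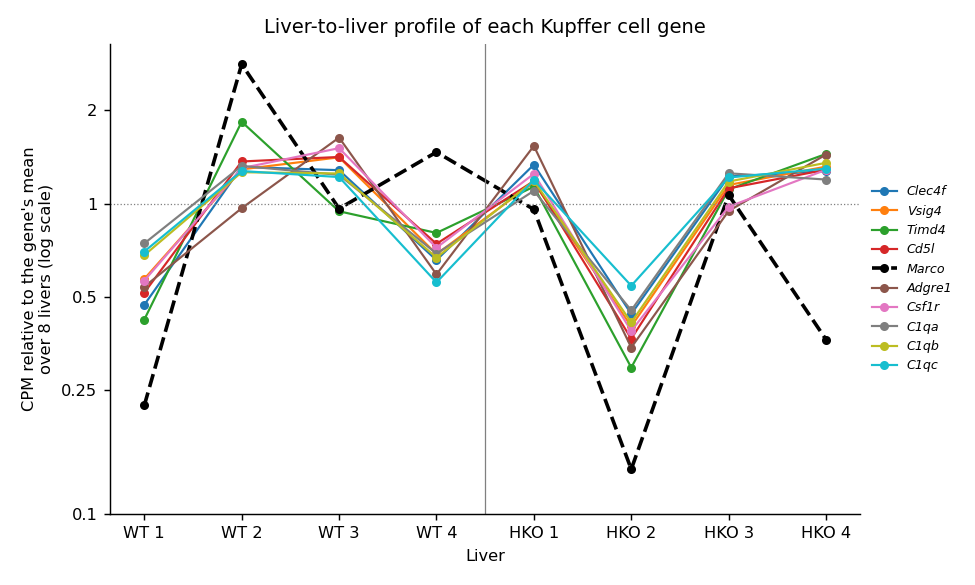
CPM of each Kupffer cell gene relative to its own mean over the 8 livers (log axis), with 1 line per gene across WT and *HKO* livers and *Marco* dashed. The lines of 9 genes dip together at WT 1, WT 4 and *HKO* 2, and *Marco* departs at WT 4 and *HKO* 4.

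The ratio of 2 genes within a liver does not depend on scaling, nor on how much macrophage RNA a liver yields if both change alike. Of 9 such log2 ratios, 1 separated the genotypes: *Cd5l* over *Clec4f* was 1.39, 1.33, 1.41 and 1.44 in WT and 1.13, 1.06, 1.17 and 1.29 in *HKO* livers, as a ratio of counts. All 4 *HKO* livers were below all 4 WT livers, a log2 difference of -0.26 (exact permutation test over 70 allocations, two-sided p = 0.0286, the smallest this design can give). Adjusted over the 9 ratios the permutation p was 0.129, a correction that 1 ratio alone could not pass at this smallest p. Over the 8 sets that left out a liver the log2 difference ran from -0.314 to -0.22, with an exact permutation p of 0.0571 without each WT liver and 0.0286 without each *HKO* liver. *Csf1r* over *Clec4f* fell short, with a log2 difference of -0.30, as did *Vsig4* over *Clec4f* with -0.20 and *C1qc* over *C1qa* with 0.23 (exact permutation p = 0.0571 each, adjusted 0.129). Every ratio over *Clec4f* had a negative log2 difference. These ratios share *Clec4f* as denominator and are not independent of each other. The balance of *C1qb* to *C1qa* moved little over the 8 livers, from 1.06 to 1.31, and that of *Vsig4* to *Clec4f* from 0.499 to 0.691. *Marco* over *Clec4f* moved the most, from 0.0295 in *HKO* 4 to 0.230 in WT 4, a span of 7.79 times (log2 difference -1.17, exact permutation p = 0.143).

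**Figure D4:**
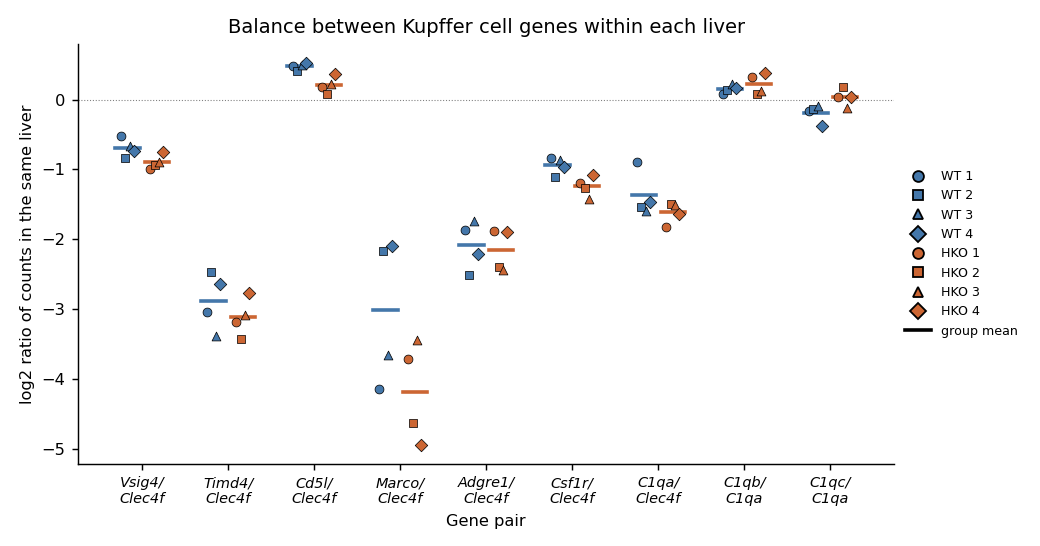
Log2 ratio of counts between pairs of Kupffer cell genes in the same liver, with 1 point per liver for WT (blue) and *HKO* (orange) and a bar at the group mean. *Cd5l* over *Clec4f* is the pair whose groups do not overlap, with a mean of 0.47 in WT and 0.21 in *HKO* livers, and *Marco* over *Clec4f* has the widest spread.

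The genes with the most similar profile were sought among 11867 other tested genes with a mean of at least 1 CPM, by Pearson's r with the mean of the 10 genes over the 8 livers after genotype means were removed. The closest were *Adgre4* (0.996), *Cd300ld* (0.991), *Fcna* (0.986), *Folr2* (0.983), *Abi3* (0.982), *Cd300c2* (0.981), *Kcnj16* (0.98) and *Ctss* (0.98). *Adgre4* encodes an adhesion receptor related to F4/80, *Fcna* the lectin ficolin A, *Folr2* a folate receptor of tissue macrophages and *Ctss* the protease cathepsin S. *Adgre4* was 4.29, 11.3, 11 and 5.06 CPM in WT and 10.3, 2.31, 9.29 and 9.44 CPM in *HKO* mice. None of the 8 passed the test between genotypes, and 118 candidates reached an r of 0.9; their low livers follow from how they were chosen.

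Other gene lists show how far the shared pattern reached. Of 13 further Kupffer cell genes, all tested, 0 were called in either direction (206 genes or 1.66% of those tested were called higher and 418 or 3.37% lower), and their median log2 fold change was 0.11. WT 1, WT 4 and *HKO* 2 were the lowest livers for 9 of the 13. Among the exceptions were transcription factors: *Nr1h3*, which encodes LXR-alpha and is also made by hepatocytes, lay at 35.6 to 41.6 CPM in WT and 39.5 to 44.8 CPM in *HKO* mice, with *HKO* 2 the highest, and *Id3* at 12.5 to 15.8 and 13.1 to 18.1 CPM. *Spic*, which drives the iron-recycling macrophage program, was near 1 CPM, from 0.991 to 1.44 in WT and 0.308 to 1.62 in *HKO* livers. Of 16 general macrophage genes, 0 were called, and 12 had the same 3 lowest livers. Of 9 tested scavenger receptors 0 were called, and 6 had them. The median log2 fold changes were 0.09 for the general macrophage genes and 0.29 for the scavenger receptors.

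Other genes encode the signals that reach Kupffer cells or their receptors. Of 12 tested niche genes 0 were called and 1, *Csf1*, had the same 3 lowest livers. *Csf1*, the growth factor for the receptor that *Csf1r* encodes, was 7.02, 8.30, 9.84 and 6.96 CPM in WT and 9.37, 7.02, 10.1 and 8.42 CPM in *HKO* mice (log2 fold change 0.12 ± 0.16 SE, edgeR adjusted p = 0.749). *Il34*, the second ligand, was too low to test, at 0.225 to 1.28 CPM over the 8 livers. *Notch1*, a Notch receptor named after its values were seen, was 9.99, 15.9, 19.2 and 14.1 CPM in WT and 10.3, 7.02, 9.40 and 10.97 CPM in *HKO* mice, with WT 1 inside the *HKO* range (log2 fold change -0.66, edgeR adjusted p = 0.0892, DESeq2 adjusted p = 0.034). The niche list had 1 call with DESeq2 and 1 with edgeR without WT 1. In the 6 tested genes of the CSF1 receptor pathway, 0 were called. Median log2 fold changes were 0.11 for the niche genes and 0.07 for the CSF1 receptor pathway.

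The proteins that act with C1q come mostly from hepatocytes. *C1ra*, the protease C1r of the first complement component, was 283, 244, 256 and 279 CPM in WT and 329, 329, 398 and 380 CPM in *HKO* mice, with no overlap (log2 fold change 0.43 ± 0.09 SE, edgeR adjusted p = 0.0207). It passed in 6 of the 8 fits that left out a liver, and not without WT 2 (adjusted p = 0.084) or *HKO* 4 (adjusted p = 0.0596). *C1s1*, the partner protease C1s, was 825, 754, 765 and 807 CPM in WT and 770, 716, 798 and 665 CPM in *HKO* mice (log2 fold change -0.10 ± 0.09 SE, adjusted p = 0.598). Of the 11 tested genes of the classical complement list, *Vsig4* included, 1 was called higher and 0 lower, with a median log2 fold change of 0.06. DESeq2 called 4 of them, and the edgeR count was 0 without WT 2 or *HKO* 4 and up to 3 without another liver (*HKO* 3). *Serping1*, the C1 inhibitor, and *C2*, the complement component that C1s cleaves, were both named after their values were seen. They were higher in *HKO* mice with no overlap between genotypes, and missed the edgeR threshold (adjusted p = 0.0649 and 0.0628). *C1s2* of the same list, also named after its values were seen, had no overlap in the other direction. It was 1.32 to 1.74 CPM in WT and 0.619 to 1.28 CPM in *HKO* mice (log2 fold change -0.66, edgeR adjusted p = 0.25). Of all tested genes, 12.5% had no overlap.

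Genes of recruited and of lipid-associated macrophages were listed apart. Of 10 recruited monocyte genes 5 were tested and 1 was called lower: *Ccr2*, the chemokine receptor that brings monocytes out of the marrow, at 5.53, 4.74, 5.27 and 5.38 CPM in WT and 2.70, 3.70, 3.43 and 2.04 CPM in *HKO* mice (log2 fold change -0.81 ± 0.20 SE, edgeR adjusted p = 0.0397). When a liver was left out it passed in 2 of 8 fits, those without *HKO* 2 or *HKO* 3, and the adjusted p ran from 0.0379 to 0.105. *Ly6c2*, the antigen of inflammatory monocytes, was at 0.0497 to 0.472 CPM, where 3 counts correspond to 0.149 to 0.255 CPM. None of the 5 tested monocyte genes had the 3 lowest livers of the Kupffer cell genes. Of 9 lipid-associated macrophage genes 7 were tested and 1 was called lower: *Gpnmb*, a transmembrane glycoprotein, at 0.908, 0.767, 1.49 and 1.38 CPM in WT and 0.135, 0, 0.0563 and 0.170 CPM in *HKO* mice (edgeR adjusted p = 0.0041). It had 73 counts in the 4 WT livers and 5 in the 4 *HKO* livers, so it passed the count filter through the WT livers, where it is high. With at least 10 counts required in every liver it was not tested, and 0 genes of the list were called. *Gpnmb* passed in 8 of the 8 fits that left out a liver. The lipid-associated macrophage list had 2 calls with DESeq2, with the replicate block and with edgeR without *HKO* 1. *Trem2*, the lipid receptor that names these cells, was at 0 to 0.496 CPM and was not tested. The tested monocyte genes had a median log2 fold change of -0.46 and the lipid-associated macrophage genes of -0.33.

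Markers of other liver cells moved in part with the same livers, and their part in the results was not tested. Sinusoidal endothelial markers (10 of 10 tested, 0 called) summed to 124 to 400 CPM in WT and 202 to 464 CPM in *HKO* mice, with WT 3, *HKO* 1 and *HKO* 4 above the rest, and 1 of the 10 had the 3 lowest livers of the Kupffer cell genes. Stellate cell markers summed to 532 to 653 CPM in WT and 434 to 620 CPM in *HKO* mice; 0 of 10 had those livers, and *Col3a1*, a fibrillar collagen, was called lower (95.6, 48.0, 57.8 and 83.4 CPM in WT, 17.6, 27.3, 19.5 and 13.4 CPM in *HKO* mice, log2 fold change -1.87, edgeR adjusted p = 0.0137). Cholangiocyte markers (3 of 6 tested, 0 called) summed to 112 CPM in *HKO* 2 and to 30.9 to 53.2 CPM in the other 7 livers. *HKO* 2, the lowest liver in Kupffer cell transcripts, was the highest for 5 of the 6. *Epcam*, picked for mention after its values were seen, was at 16.5 CPM there and at 0.328 to 1.02 CPM elsewhere. Of 9 hepatocyte markers 5 were called higher, the 4 with the smallest p being *Cps1* (log2 fold change 1.26), *Tat* (0.87), *Serpina1c* (0.90) and *Fgb* (0.61), and 0 had the 3 low livers. Those 4 passed in 8, 7, 3 and 3 of the 8 fits without a liver. Of all tested genes 1.66% were called higher. Of the 9 hepatocyte markers 3 had a log2 fold change below 0. Their sums overlapped between genotypes, at 95330 to 126800 CPM in WT and 89830 to 142400 CPM in *HKO* mice. Lymphocyte, dendritic cell and neutrophil lists had 1 of 11, 1 of 6, 4 of 6 and 3 of 6 genes tested (T and NK, B and plasma, dendritic, neutrophil), with 0 called. The median log2 fold change was 0.50 for the endothelial, 0.06 for the stellate and 0.61 for the hepatocyte markers. Neutrophil markers summed to 8.18 CPM in *HKO* 2 and to 0.909 to 4.14 CPM in the others.

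**Figure D5:**
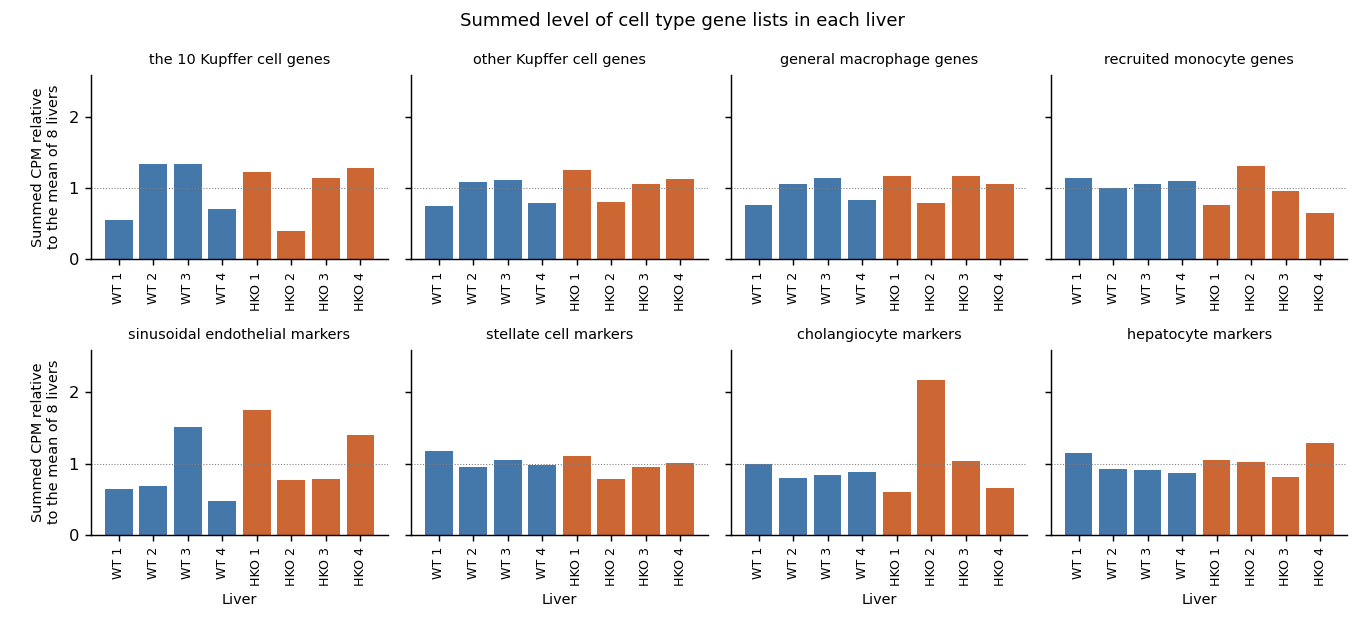
Summed CPM of 8 gene lists in each liver, relative to the mean of the 8 livers (bars from 0, WT blue and *HKO* orange). The 10 Kupffer cell genes, further Kupffer cell genes and general macrophage genes share their low livers WT 1, WT 4 and *HKO* 2, and cholangiocyte markers stand out in *HKO* 2.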

How the data were processed

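RNA-Seq was done on frozen livers of 8 mice with ribosomal RNA depletion and an Illumina small RNA library kit, per the labels, with 1 library per mouse. The authors deposited estimated counts per gene, not normalized, made with STAR and the expectation-maximization quantification of Partek; versions, build and annotation are not given in the sources used here. The deposited coordinates of the 10 genes had the RefSeq GRCm38.p6 end for 9 and start for 7. Estimated counts were rounded (5502 genes held a fractional value, and *Adgre1* did in 2 livers), since reads shared between genes are split by an estimate. edgeR 4.0.16 (TMM, filterByExpr with a minimum count of 10, robust quasi-likelihood test, Benjamini-Hochberg over 12395 genes, threshold 0.05) compared 4 *HKO* with 4 WT livers. Alternatives used DESeq2 1.42.0, limma 3.58.1 (voom), other scalings and filters, a replicate block, and fits without each liver. The methods were tested on simulated data with the same spread between livers set for all genes. That spread was smaller than the spread of the 10 genes, so the simulation does not show how the methods perform for them. Within-liver ratios used 2 added counts and an exact permutation test. Intervals are 95% and the floor is 3 counts.

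The 10 genes and the lists were chosen with earlier results of these data known. Named were the 10 genes, the called genes of each list up to 4, 10 further genes that the design listed, and the 8 closest profiles. Each library carries its own mouse number in its title and in the header of its count column. The description fields of the WT samples, however, all repeat the same mouse number. Titles and headers were followed in taking the livers as those of different mice. The p-values set a genotype difference against the spread between these livers. Replicate numbers mark different mice, and same-numbered livers did not vary together (r from -0.15 to 0.01). The miR-33 gene itself was not analysed here. For these livers its deletion therefore rests on the labels. The paper reports loss of miR-33 by qPCR in hepatocytes isolated from *HKO* mice on this diet, without saying that they were these mice.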

Additional observations from a re-analysis of the deposited data

Results flagged for a closer look

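The 44 tested genes and ratios of the text, *C1s2* aside, were each examined in 2 genotypes (88 groups of 4 livers). Among these, 6 groups held a liver whose gap to the nearest other liver exceeded Dixon's 95% critical value. Chance flags about 1 in 20 groups, but these groups were partly chosen with values seen (*Epcam*, *C2*, *Adgre4*) and *Clec4f*, *C1qc* and *Adgre4* vary together, so the number is not set against chance. *HKO* 2 was that liver in 5 of the 6. Over all tested genes of the lists, the 8 closest profiles and the 9 ratios, 266 groups in all, there were 18 such groups, 10 of them by *HKO* 2 and 8 by 5 other livers. *Clec4f* was 19 CPM in *HKO* 2 and 52.7 to 57.5 CPM in the other *HKO* livers. *C1qc* was 7.56 CPM beside 16.6 to 18.03 CPM, and *Adgre4* 2.31 CPM beside 9.29 to 10.3 CPM. *Nr1h3* lay above the others at 44.8 CPM beside 39.5 to 40.0 CPM, and *Epcam* at 16.5 CPM beside 0.45 to 1.02 CPM. *C2* was 93.5 CPM in *HKO* 3 beside 54.1 to 60.3 CPM.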

How the results depend on the processing

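Across 18 alternatives 0 of the 10 Kupffer cell genes were called, where 9 of the 10 were tested with at least 10 counts in every liver (all but *Marco*). All genes called, 624, became 1014 with DESeq2, 367 with a fold above 1.5 required as well, and 212 (without WT 2) to 597 (without WT 4) when 1 liver was left out, with 272 without WT 1 and 364 without *HKO* 4; total count scaling gave 119 higher and 625 lower in place of 206 and 418. The 9 list genes called became 16 with DESeq2 and 4 to 9 without 1 liver, lowest without WT 2 and without *HKO* 4. The replicate block left 456 calls in all, and the ratios past 0.05 went from 1 to 0, its smallest p being 0.125; without 1 liver they numbered 0 to 2. The numbers are those of different mice, and no *HKO* liver varied most like the WT liver of its own number. Fold changes that turned sign were *Vsig4* (-0.097 by total count, -0.026 by voom), *Timd4* (0.063 with the block), *C1qa* (-0.113 by total count, -0.005 with 10 counts in every liver, -0.046 by voom, -0.016 with the block) and *C1qb* (-0.024 by total count). Without 1 liver, log2 fold changes ran from -0.02 to 0.46 (*Clec4f*), -0.16 to 0.29 (*Vsig4*), -0.25 to 0.45 (*Timd4*), -0.25 to 0.24 (*Cd5l*), -1.44 to -0.47 (*Marco*), -0.048 to 0.607 (*Adgre1*), -0.27 to 0.19 (*Csf1r*), -0.14 to 0.24 (*C1qa*), -0.059 to 0.356 (*C1qb*) and -0.004 to 0.394 (*C1qc*). The ratio of *Adgre1* to *Clec4f* ran from -0.217 to 0.0437. The cause of these changes was not tested. *Il34*, *Ly6c2* and *Trem2* were too low to test, and *Marco* had 8 counts in *HKO* 2.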

Other observations

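The profile of the 10 Kupffer cell genes over the 8 livers, with genotype means removed, was also set beside each list gene. The median Pearson's r with it was 0.90 for the 13 other Kupffer cell genes, 0.89 for the 16 general macrophage genes and 0.75 for the 9 scavenger receptors. It was 0.64 for the 10 sinusoidal endothelial markers, 0.47 for the 10 stellate cell markers and 0.26 for the 12 niche genes. *Csf1* stood at 0.85, and *Nr1h3*, the LXR-alpha gene, at -0.79. *Nr1h3* varied little, however, its highest liver (*HKO* 2) being 1.26 times its lowest. Recruited monocyte genes had a median of -0.60 over 5 genes, with *Ccr2* at -0.62, and hepatocyte markers of -0.11 over 9. Over all 12395 tested genes the median was -0.02. These are descriptions over 8 livers, with no p.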
